A study of Mus musculus with 12 samples.

Results

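B and plasma cell genes were followed in mouse duodenum across 2 genotypes and 2 ages. The set held 9 genes, named by symbol: Jchain, Igha, Ighm, Cd79a, Cd79b, Ms4a1, Pou2af1, Mzb1 and Tnfrsf17. All 9 were measured, among 19938 genes on the array. Where several array features carried the same single symbol, the feature with the highest mean over all arrays stood for the gene. Duodenal segments came from 129 strain mice that lacked Onecut2, a transcription factor of the duodenal epithelium, or were wild type. The groups were knockout at postnatal day 30, wild type at day 30, knockout at day 15 and wild type at day 15, with 3 arrays each. Every array carried total RNA of 5 to 8 mice of mixed sex, with no treatment. The replicates were therefore separate pools, and their spread is smaller than that between single mice would be. The labels name neither the deletion allele nor the cells that lack the gene. Values are log2 RMA expression values, so 1 unit is a 2-fold difference in array signal. Levels of different genes are not comparable on this scale, because each gene has its own probes.

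B cells carry an antibody molecule on their surface as the B cell receptor. When they become plasma cells they secrete antibody, which in the gut is mainly dimeric IgA joined by the J chain. The polymeric immunoglobulin receptor of the epithelium then carries that IgA into the lumen. Suckling mice receive antibody through milk and build their own intestinal plasma cell population around and after weaning. In RNA of a whole tissue segment, more cells of a type and more RNA per cell cannot be told apart.

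The samples matched their labels in the targeted gene. Onecut2 read 8.22 ± 0.03 in knockout and 9.58 ± 0.07 in wild type at day 30, and 8.14 ± 0.05 in knockout and 9.64 ± 0.08 in wild type at day 15 (SD, n = 3 each). Pools differed in sex composition, with Xist between 9.26 and 11.37 over the arrays. In wild type Xist was called lower at day 30 than at day 15, with overlapping arrays (log2 difference -1.03, limma adjusted p = 0.03). In knockout it did not pass (adjusted p = 0.99). Pancreas acinar genes were present on every array, with means from 11.94 to 13.36. The 10 duodenal epithelium genes averaged 11.70 to 11.91 over the arrays. By limma none of them was called between genotypes, where 3.83% of all genes passed at day 15 and 1.98% at day 30. At each age 5 of the 10 had an unadjusted p under 0.05. Of all 19938 genes 3034 had this at day 15 and 2238 at day 30. The 10 genes therefore do not show that the epithelium was alike in the genotypes.

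Upstream sequences of 3 of the genes are shown because they represent a secreted product of plasma cells, a part of the receptor of B cells and a transcriptional coactivator shared by both. They are RefSeq windows of 300 bases, 250 before and 50 after the gene start (GRCm38.p6), written 5′ to 3′ on the gene's strand. The Jchain window is chr5:88527848-88528147 on the minus strand. The Cd79a window is chr7:24897247-24897546 and the Pou2af1 window is chr9:51213440-51213739, both on the plus strand. Capitals mark the only match to the motifs searched.
Jchain: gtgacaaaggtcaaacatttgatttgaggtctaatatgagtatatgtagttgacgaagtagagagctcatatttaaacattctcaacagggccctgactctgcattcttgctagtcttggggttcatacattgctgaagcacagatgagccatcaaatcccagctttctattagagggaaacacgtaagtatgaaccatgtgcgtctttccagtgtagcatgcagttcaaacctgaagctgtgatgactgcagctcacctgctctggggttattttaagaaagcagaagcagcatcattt
Cd79a: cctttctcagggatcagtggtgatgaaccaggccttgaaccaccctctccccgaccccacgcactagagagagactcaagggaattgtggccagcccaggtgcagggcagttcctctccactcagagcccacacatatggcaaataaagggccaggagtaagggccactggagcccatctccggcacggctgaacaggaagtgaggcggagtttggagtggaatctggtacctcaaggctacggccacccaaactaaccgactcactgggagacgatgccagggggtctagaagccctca
Pou2af1: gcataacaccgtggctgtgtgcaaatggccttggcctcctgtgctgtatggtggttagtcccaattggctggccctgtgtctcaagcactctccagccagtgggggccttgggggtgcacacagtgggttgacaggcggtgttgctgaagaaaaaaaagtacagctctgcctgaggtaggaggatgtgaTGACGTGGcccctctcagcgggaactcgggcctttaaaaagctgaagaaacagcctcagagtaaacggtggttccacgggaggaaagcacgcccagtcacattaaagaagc
Windows were matched for 4 of the 9 genes, these 3 and Tnfrsf17. Both strands were searched for the octamer ATGCAAAT, which POU2AF1 helps its partner factors to use, for the core bound by EBF factors, TCCC and GGGA with 2 free bases between them, and for the unfolded protein response element TGACGTGG, a sequence bound by XBP1. The octamer lay in 1.74% of 32851 promoter windows and in 0 of the 4. The EBF core lay in 0.904% of all windows and in 0 of the 4. The unfolded protein response element lay in 0.676% of all windows and in 1 of the 4, that of Pou2af1, where it began at position -61 from the start. These matches describe letters in short windows, and no binding was measured.

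Age separated the arrays for nearly all of the genes. In knockout duodenum 9 of 9 were higher at day 30 than at day 15, where 13.8% of all genes passed in that direction (limma, Benjamini-Hochberg adjusted p under 0.05). In wild type duodenum 8 of 9 were higher, against 12.3% of all genes, and Ms4a1 did not pass. All arrays of day 30 lay above all arrays of day 15 for 9 of 9 genes in knockout (20.9% of all genes) and 8 of 9 in wild type (20.7%). The median log2 difference of the 9 genes was 1.24 in knockout, where the median of all genes was 0.03. In wild type these medians were 1.32 and 0.02. The 3 genes of the antibody molecule differed most, at 8.45-fold or more in each genotype. Cd79a, Cd79b and Ms4a1, which encode other parts of the B cell receptor or of the B cell surface, differed by 1.91-fold at most.

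**Figure D1:**
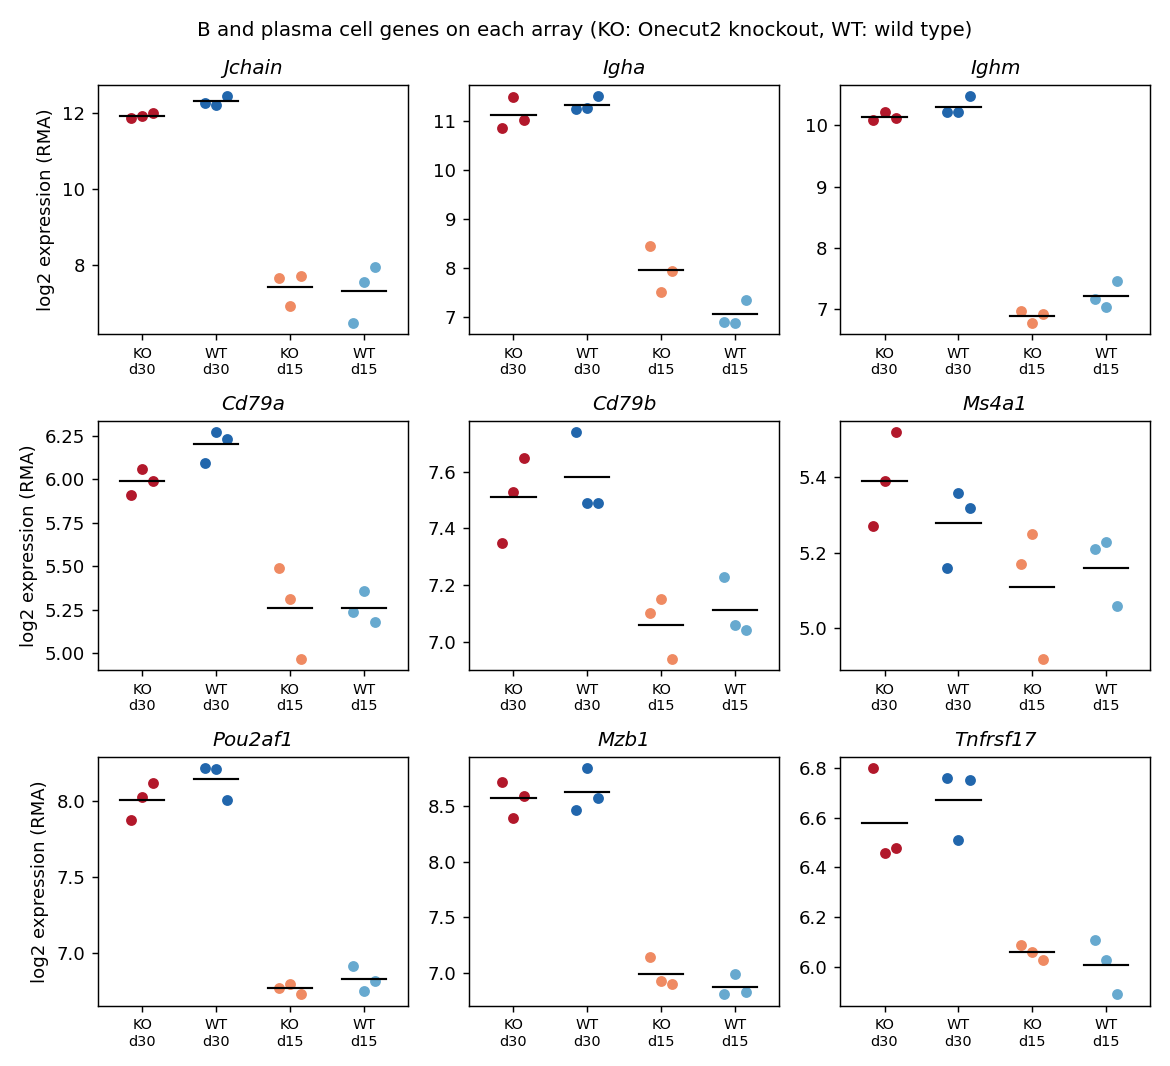
Log2 RMA expression value of each of the 9 genes on each of the 12 arrays, with points for arrays and a bar for the mean of 3, knockout left of wild type within an age. Jchain, Igha and Ighm lie above 10 on every day 30 array and below 8.5 on every day 15 array, while the Ms4a1 arrays of both ages lie between 4.92 and 5.52.

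Jchain (chromosome 5) encodes the small joining protein that links antibody units into IgA dimers and IgM pentamers. In knockout duodenum it read 11.85, 11.92 and 11.99 at day 30, against 7.66, 6.90 and 7.71 at day 15. In wild type it read 12.25, 12.21 and 12.43 at day 30, against 6.47, 7.53 and 7.94 at day 15. Every day 30 array stood well above every day 15 array in both genotypes. The rise with age was 22.6-fold in knockout (95% interval 14.4 to 35.2, limma adjusted p = 2.1e-07) and 31.7-fold in wild type (20.3 to 49.4, adjusted p = 9.5e-08). Among all 19938 genes it ranked 1 by size of rise in knockout and 3 in wild type. Within day 15 the wild type arrays spanned 1.48 log2 units and the knockout arrays 0.81, while day 30 arrays spanned 0.14 in knockout and 0.21 in wild type.

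Igha (chromosome 12) encodes the constant part of the IgA heavy chain, the antibody class that gut plasma cells mainly make. Knockout arrays read 10.87, 11.49 and 11.02 at day 30, against 8.44, 7.50 and 7.93 at day 15. Wild type arrays read 11.25, 11.28 and 11.51 at day 30, against 6.90, 6.88 and 7.35 at day 15. The ages did not overlap in either genotype. The rise was 9.0-fold in knockout (6.51 to 12.4, limma adjusted p = 2.7e-07) and 19.7-fold in wild type (14.2 to 27.2, adjusted p = 2.3e-08). It ranked 16 in knockout and 4 in wild type among all rises.

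Ighm (chromosome 12) encodes the heavy chain of IgM, which naive B cells display and early plasma cells secrete. Its day 30 values were 10.08, 10.22 and 10.11 in knockout and 10.22, 10.21 and 10.47 in wild type. Its day 15 values were 6.98, 6.78 and 6.92 in knockout and 7.17, 7.04 and 7.46 in wild type. All day 30 arrays lay above all day 15 arrays, by 9.47-fold on average in knockout (limma adjusted p = 7.0e-10) and 8.45-fold in wild type (adjusted p = 1.0e-09). The feature used spanned at most 0.42 log2 units within any group of 3 arrays. The other 2 Ighm features gave log2 rises of 2.06 and 3.59 in knockout and of 2.35 and 4.33 in wild type, against 3.24 and 3.08 for the feature used. They share the direction and disagree in size. They also disagree in spread, since the feature with the larger rises spanned 1.27 in day 15 knockout and 1.19 in day 15 wild type. At day 30 that feature spanned 0.63 in knockout and 1.35 in wild type, while the feature with the smaller rises spanned at most 0.42 in any group.

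Antibody features as a whole, those of Igha and Ighm included, rose with age. The array carried 31 features with at least one immunoglobulin gene symbol, 10 of the heavy chain (the 2 Igha and 3 Ighm features among them), 19 of the kappa chain and 2 of the lambda chain, and 16 of them list several symbols. All 31 were higher at day 30 in both genotypes, where 9.11% of all 35557 features passed in knockout and 7.93% in wild type. The log2 rises ran from 1.98 to 5.69 in knockout (median 3.84) and from 1.89 to 5.86 in wild type (median 4.30). In no feature did the ages overlap. Near-identical segments share probes, so the 31 features are not 31 independent measurements. Ighg3, an IgG heavy chain gene, read 8.77, 9.45 and 8.21 at day 30 in knockout, against 4.87, 4.84 and 4.47 at day 15. In wild type it read 8.62, 8.70 and 8.69 at day 30, against 4.96, 4.78 and 4.60 at day 15.

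Antibody features varied between pools of the same group more than most genes did, and more so at day 15. Of the 31 features, the number whose 3 arrays spanned over 1 log2 unit was 2 in knockout and 3 in wild type at day 30. Of all genes, 0.125% spanned as much in day 30 knockout and 0.16% in day 30 wild type. At day 15 the number of features was 9 in knockout and 8 in wild type. There 0.497% of all genes spanned as much in knockout and 0.186% in wild type. The kappa segment Igkv10-96 read 8.43, 5.40 and 9.05 in day 15 knockout, against 5.92 to 6.07 in day 15 wild type. At day 30 this segment lay at 11.45 to 11.90 in knockout and 11.82 to 11.93 in wild type. A kappa feature listed under 4 symbols spread the other way, with 4.04, 4.66 and 5.99 in day 15 knockout and 4.38, 7.72 and 8.75 in day 15 wild type. No feature with a single segment symbol spanned over 2 log2 units in day 15 wild type, where the widest, Igkv9-120, spanned 1.43.

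**Figure D2:**
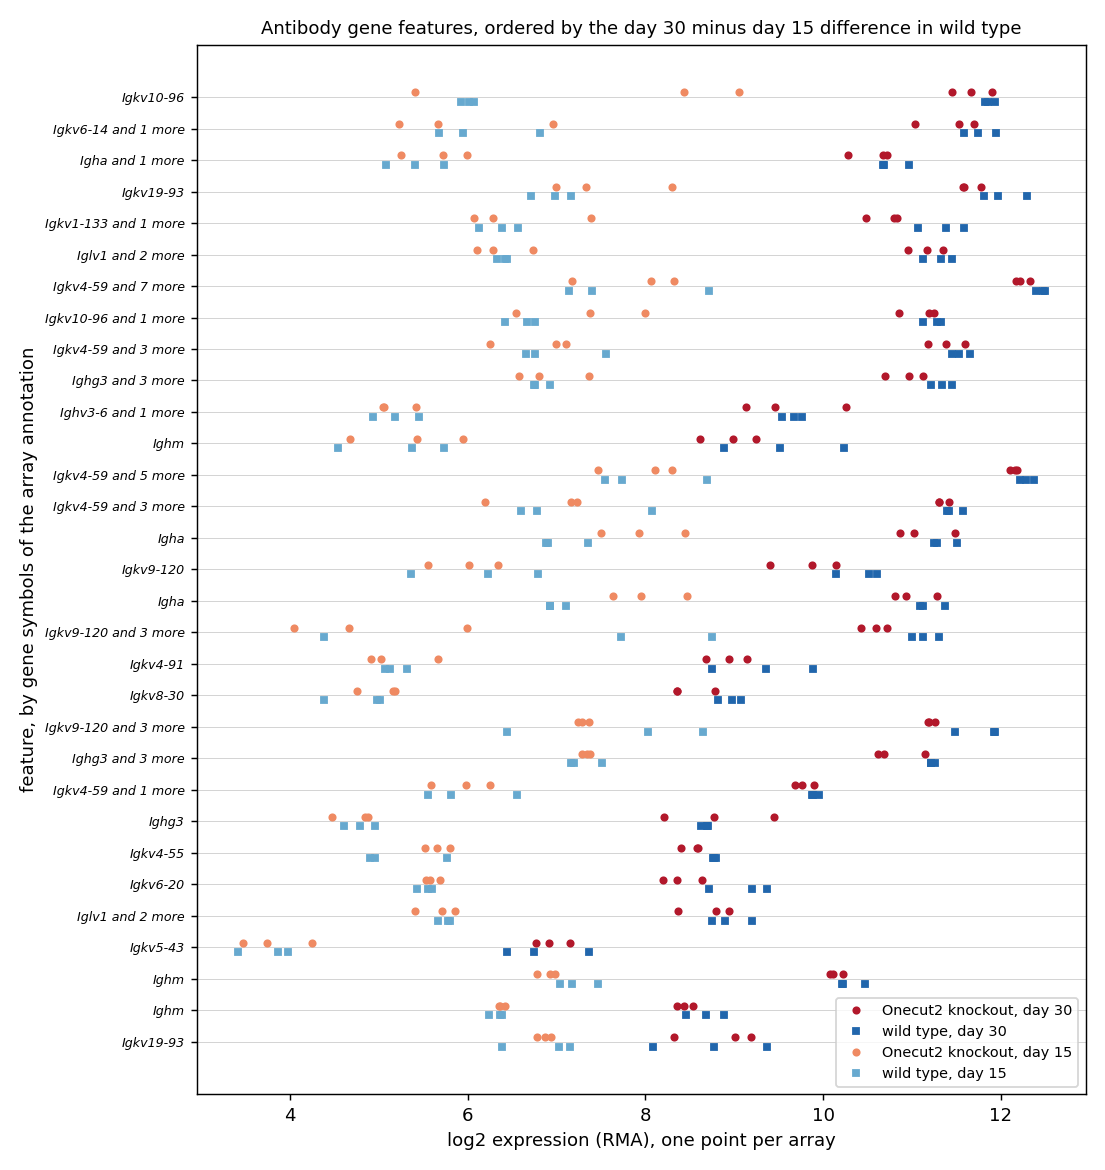
Log2 values of the 31 antibody features on all 12 arrays, ordered by their difference with age in wild type. Each feature's day 30 points lie to the right of its day 15 points, and the day 15 points of 3 features, within a genotype, scatter over more than 2 units.

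Pou2af1 (chromosome 9) encodes OBF-1, the coactivator with which POU factors act on antibody gene octamers. Its knockout arrays read 7.88, 8.03 and 8.12 at day 30, against 6.77, 6.80 and 6.73 at day 15. The wild type arrays read 8.22, 8.21 and 8.01 at day 30, against 6.92, 6.75 and 6.82 at day 15. Within a group these values lay within 0.25 log2 units, and the ages did not overlap. The rise was 2.37-fold in knockout (limma adjusted p = 1.3e-07) and 2.49-fold in wild type (adjusted p = 8.5e-08).

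Mzb1 (chromosome 18) encodes an endoplasmic reticulum protein that assists antibody assembly and secretion. It read 8.71, 8.39 and 8.59 in day 30 knockout and 8.46, 8.84 and 8.57 in day 30 wild type. At day 15 it read 7.15, 6.93 and 6.90 in knockout and 6.81, 6.99 and 6.83 in wild type. The day 30 arrays were 2.98-fold higher than the day 15 arrays in knockout (limma adjusted p = 2.8e-07) and 3.35-fold higher in wild type (adjusted p = 1.2e-07).

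Tnfrsf17 (chromosome 16) encodes BCMA, the receptor through which plasma cells receive survival signals. Its values were 6.80, 6.46 and 6.48 in day 30 knockout and 6.76, 6.51 and 6.75 in day 30 wild type. At day 15 they were 6.09, 6.06 and 6.03 in knockout and 6.11, 6.03 and 5.89 in wild type. The ages were separated by a smaller step than for Mzb1, at 1.43-fold in knockout (limma adjusted p = 0.0011) and 1.58-fold in wild type (adjusted p = 1.8e-04).

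Cd79a (chromosome 7) and Cd79b (chromosome 11) encode the paired chains that pass the signal of the B cell receptor into the cell. Cd79a read 5.91, 6.06 and 5.99 in day 30 knockout and 6.09, 6.27 and 6.23 in day 30 wild type, against 5.49, 5.31 and 4.97 in day 15 knockout and 5.24, 5.36 and 5.18 in day 15 wild type. Its rise was 1.66-fold in knockout (limma adjusted p = 2.1e-04) and 1.91-fold in wild type (adjusted p = 2.6e-05). Cd79b read 7.35, 7.53 and 7.65 in day 30 knockout and 7.74, 7.49 and 7.49 in day 30 wild type. At day 15 it read 7.10, 7.15 and 6.94 in knockout and 7.23, 7.06 and 7.04 in wild type. The day 30 arrays of Cd79b lay above those of day 15 in each genotype, by 1.36-fold in knockout (adjusted p = 0.0028) and 1.38-fold in wild type (adjusted p = 0.0022).

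Ms4a1 (chromosome 19) encodes CD20, a surface protein of B cells that plasma cells lose. It read 5.27, 5.39 and 5.52 in day 30 knockout and 5.16, 5.36 and 5.32 in day 30 wild type. At day 15 it read 5.17, 5.25 and 4.92 in knockout and 5.21, 5.23 and 5.06 in wild type. In knockout the lowest day 30 array (5.27) and the highest day 15 array (5.25) almost met, and in wild type the ages overlapped. The difference was 1.21-fold in knockout (1.05 to 1.40, limma adjusted p = 0.04) and 1.08-fold in wild type (0.939 to 1.25, adjusted p = 0.4). The knockout call ended in 10 of the 22 alternative fits that hold the gene. Leaving out a single array ended it for day 15 knockout replicate 1 (0.31, adjusted p = 0.055), day 15 knockout replicate 3 (0.18, 0.18), day 30 knockout replicate 2 (0.28, 0.075), day 30 knockout replicate 3 (0.21, 0.15) and day 30 wild type replicate 3 (0.28, 0.051), as log2 differences with their adjusted p.

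The genes differed in signal level. Jchain, Igha, Ighm and Mzb1 were brighter over the 12 arrays than the median gene, at 7.56. The other 5 were dimmer, with Ms4a1 at 5.24, Cd79a at 5.68 and Tnfrsf17 at 6.33. Pou2af1 at 7.44 and Cd79b at 7.31 stood close to that median. The high day 30 values of the brighter genes enter these means. At day 15 Jchain averaged 7.42 in knockout and 7.31 in wild type, and Ighm 6.89 in knockout and 7.22 in wild type. Mzb1 averaged 6.99 in day 15 knockout and 6.88 in day 15 wild type, and Igha 7.96 in day 15 knockout and 7.05 in day 15 wild type. Array signals near background are known to understate folds, and how far this applies to the dim genes was not tested.

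Few differences passed between the genotypes. At day 30, 0 of the 9 genes differed between knockout and wild type, where 1.98% of all genes passed (limma), and 0 had an unadjusted p under 0.05. The point estimates of 8 of the 9 were below 0, as were 51.8% of all genes. Jchain was lower on all 3 knockout arrays than on all wild type arrays, as were 7.49% of all genes, at a log2 difference of -0.38 (95% interval -1.02 to 0.26, adjusted p = 0.74). Cd79a likewise did not overlap, at -0.21 (-0.45 to 0.02, adjusted p = 0.52). The fit shares 1 variance per gene over all groups, and that of Jchain was uneven. Its SD was 0.07 in knockout and 0.11 in wild type at day 30, against 0.46 and 0.76 at day 15. Over the 23 alternatives the Jchain difference at day 30 never passed, with limma adjusted p from 0.06 to 0.98. Igha differed by -0.22 (-0.68 to 0.25) and Pou2af1 by -0.14 (-0.30 to 0.03). All of these intervals include 0 and reach further below it than above it, so they do not show that the genotypes were alike. Of the 31 antibody features 28 were below 0, as were 49.7% of all features, but 0 passed by limma (0.922% of all features did) and 5 had an unadjusted p under 0.05. Averaged over the 9 genes, the day 30 arrays stood at 8.30, 8.39 and 8.39 in knockout and 8.46, 8.49 and 8.53 in wild type.

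**Figure D3:**
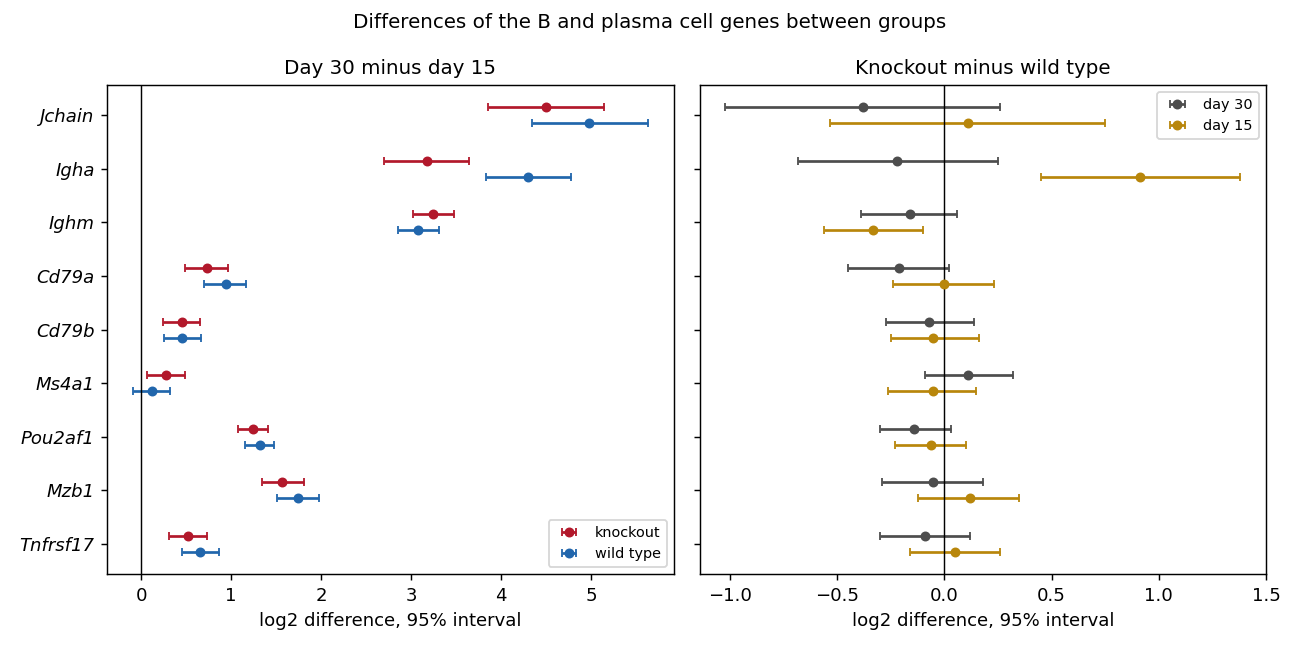
Log2 differences of the 9 genes with 95% intervals from limma, for day 30 minus day 15 in each genotype and for knockout minus wild type at each age. The age differences of Jchain, Igha and Ighm lie above 3, and the genotype intervals cross 0 except those of Igha and Ighm at day 15.

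At day 15, 1 of the 9 genes differed between genotypes, where 3.83% of all genes passed (limma). It was Igha, higher on all 3 knockout arrays (8.44, 7.50 and 7.93) than on the wild type arrays (6.90, 6.88 and 7.35), as were 9.09% of all genes. The difference was 1.88-fold (1.36 to 2.60, adjusted p = 0.035). The second Igha feature read 8.47, 7.63 and 7.95 in knockout and 6.93, 6.92 and 7.11 in wild type, and passed in a fit over all features (log2 difference 1.03, adjusted p = 0.024). In that fit the first feature did not pass (adjusted p = 0.099). Both list the same 7 transcript accessions, so they are not separate evidence, and the 4 features that list Igha among several symbols differed by -0.01 to 0.24 and did not pass. The Igha call ended when day 15 knockout replicate 1 was left out (0.67, adjusted p = 0.089), and likewise for day 15 knockout replicate 3 (0.93, 0.089), day 15 wild type replicate 1 (0.84, 0.11) and day 15 wild type replicate 2 (0.83, 0.13). With the replicate number as a block its adjusted p was 0.059.

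Other lists were compared over the same day 15 arrays. Smooth muscle genes averaged 10.46 to 10.64 in knockout and 10.74 to 10.84 in wild type. By limma 3 of 12 were called lower, as were 404 of all 19938 genes. All 12 were lower on every knockout array than on every wild type array, as were 12.2% of all genes. T cell genes averaged 6.73 to 6.83 in knockout and 6.56 to 6.63 in wild type. Of these, 2 of 15 were called higher, as were 360 of all genes. On every knockout array 5 of the 15 were higher than on every wild type array, as were 9.09% of all genes. Pancreas acinar genes averaged 11.94 to 12.46 in knockout and 12.67 to 12.76 in wild type. None of the 11 were called by limma, and 7 had an unadjusted p under 0.05, as had 3034 of all genes. On every knockout array 9 of the 11 were lower than on every wild type array, against the same 12.2% of all genes. With the smooth muscle mean as covariate the Igha difference was 1.45 (adjusted p = 0.14), and with Xist, which read 10.43 to 10.78 in knockout and 10.25 to 11.37 in wild type, it was 0.89 (adjusted p = 0.064). The part of T cell and acinar levels in the Igha difference was not tested.

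Among the other antibody genes no difference passed at day 15. Ighm was lower on all 3 knockout arrays, as were 12.2% of all genes, at a log2 difference of -0.33 (-0.56 to -0.10, limma adjusted p = 0.12). The other 2 Ighm features differed by 0.05 and 0.14, with overlapping groups, and did not pass. Jchain differed by 0.11 (-0.53 to 0.75, adjusted p = 0.93), and the remaining 6 genes lay between -0.06 and 0.12. Of the 31 antibody features 1 passed, the second Igha feature, where 1.62% of all features did. By the limma interaction test, 0 of the 9 genes passed for a difference between genotypes in the change with age, where 0.456% of all genes passed. Igha came nearest, with a rise smaller in knockout by 1.13 log2 units (interaction -1.13, -1.79 to -0.47, adjusted p = 0.18), and it alone had an unadjusted p under 0.05. The age comparisons and the genotype comparisons use the same arrays, so a high day 15 knockout value of Igha enters both.

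Genes of the plasma cell programme also moved with age. Of 23 measured genes for plasma cell transcription and secretion, 17 rose and 1 fell in knockout, and 18 rose and 1 fell in wild type. Over all genes, 13.8% rose and 17.2% fell in knockout, and 12.3% rose and 17% fell in wild type. The median log2 difference was 0.40 in knockout and 0.36 in wild type. Rises of at least 2-fold were called for 1 of the 23 in each genotype. Over all genes they numbered 220 in knockout and 196 in wild type. In the alternative fits 2 to 18 of the 23 rose in knockout and 1 to 18 in wild type. Without the covariate fits it was 15 to 18 in knockout and 16 to 18 in wild type. Which cells carried these rises was not tested. Irf4, a transcription factor needed for plasma cells, read 7.52, 7.60 and 7.32 in day 30 knockout, against 6.08, 6.09 and 6.02 in day 15 knockout. It read 7.39, 7.56 and 7.83 in day 30 wild type, against 5.95, 6.12 and 5.80 in day 15 wild type. Its log2 rise was 1.42 in knockout (limma adjusted p = 8.5e-07) and 1.64 in wild type (adjusted p = 2.7e-07). Slamf7, a surface receptor of plasma cells and other lymphocytes, rose by 0.96 in knockout and 0.97 in wild type. Ell2, an elongation factor that favours secreted over membrane antibody transcripts, rose by 0.60 in knockout and 0.76 in wild type. Xbp1, the transcription factor of the secretory pathway, rose by 0.40 in knockout and 0.38 in wild type, and the duodenal epithelium expresses it too. The gene that fell was Prdm1, which encodes BLIMP-1. It is a plasma cell factor that also marks the immature epithelium of suckling mice, and it fell by 1.27 in knockout and by 0.63 in wild type. Sdc1, the plasma cell surface marker CD138 that epithelium also carries, differed by -0.09 in knockout (adjusted p = 0.33) and -0.01 in wild type (adjusted p = 0.92). In neither genotype comparison did any of the 23 pass by limma, where 1.98% of all genes passed at day 30 and 3.83% at day 15. An unadjusted p under 0.05 was found for 3 of the 23 at day 30, as for 2238 of all 19938 genes. At day 15 it was found for 5 of the 23, as for 3034 of all genes.

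Genes that bring IgA cells to the gut and carry IgA across it included risers above the share of all genes. Of 21 measured, 8 rose and 3 fell in each genotype, where 13.8% of all genes rose and 17.2% fell in knockout and 12.3% rose and 17% fell in wild type. The number that fell is near the share of all genes. Pigr, the receptor that carries IgA through the epithelium, read 13.60, 13.56 and 13.61 in day 30 knockout, against 12.44, 12.09 and 12.21 in day 15 knockout. It read 13.57, 13.65 and 13.65 in day 30 wild type, against 12.53, 12.38 and 12.24 in day 15 wild type. This was a 2.53-fold rise in knockout (limma adjusted p = 2.2e-07) and 2.37-fold in wild type (adjusted p = 4.4e-07). Ccl28, an epithelial chemokine that draws IgA cells, rose by 1.04 log2 units in knockout and 1.19 in wild type. Its receptor Ccr10 rose by 0.48 in knockout and 0.45 in wild type. Tnfrsf13b, the receptor TACI, rose by 0.37 in knockout and 0.54 in wild type. The homing chemokine Ccl25 rose by 0.22 in knockout (adjusted p = 0.021), and in wild type its difference was 0.11 (adjusted p = 0.26). The survival factor gene Tnfsf13b (BAFF) differed by -0.19 in knockout and 0.05 in wild type, and the vascular homing receptor gene Madcam1 by -0.09 in knockout and 0.02 in wild type, with none of these passing. Aldh1a2, an enzyme of retinoic acid synthesis, fell by 1.06 in knockout and by 1.16 in wild type.

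Genes of naive B cells and lymphoid follicles mostly did not pass. Of 21 B cell surface and transcription factor genes, 2 rose and 2 fell in knockout, and 3 rose and 3 fell in wild type. These counts are near the shares of all genes, of which 13.8% rose and 17.2% fell in knockout and 12.3% rose and 17% fell in wild type. Cd37 rose by 0.26 in knockout and 0.43 in wild type, while Ebf1 fell by 0.81 in knockout and by 0.84 in wild type. Ebf1 encodes an early B cell factor that stromal cells also express. Pax5, the factor that maintains B cell identity, differed by 0.08 in knockout (limma adjusted p = 0.61) and 0.26 in wild type (adjusted p = 0.097). Of 11 germinal centre genes, 2 rose in knockout and 1 in wild type, and none fell. Bcl6, their master regulator, differed by 0.14 in knockout and 0.20 in wild type and did not pass. Of 14 follicle and M cell genes, 2 rose and 1 fell in knockout, and 4 rose and 1 fell in wild type. Gp2, among the 4, is set beside an acinar gene further below. The follicle chemokine Cxcl13 was the one gene of the IgA and follicle lists higher in day 15 knockout, at 7.98, 8.15 and 8.07, against 7.34, 7.58 and 7.46 in day 15 wild type (log2 difference 0.61, adjusted p = 0.0014). Aldh1a2, of the IgA list, was called the other way at day 15, at 9.62 ± 0.10 in knockout and 9.95 ± 0.06 in wild type (SD, 3 arrays each, difference -0.33, limma adjusted p = 0.034). No Cxcl13 difference passed at day 30, where it read 7.90, 7.82 and 7.79 in knockout and 7.89, 7.62 and 7.90 in wild type, and the interaction did not pass (-0.58, adjusted p = 0.065).

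**Figure D4:**
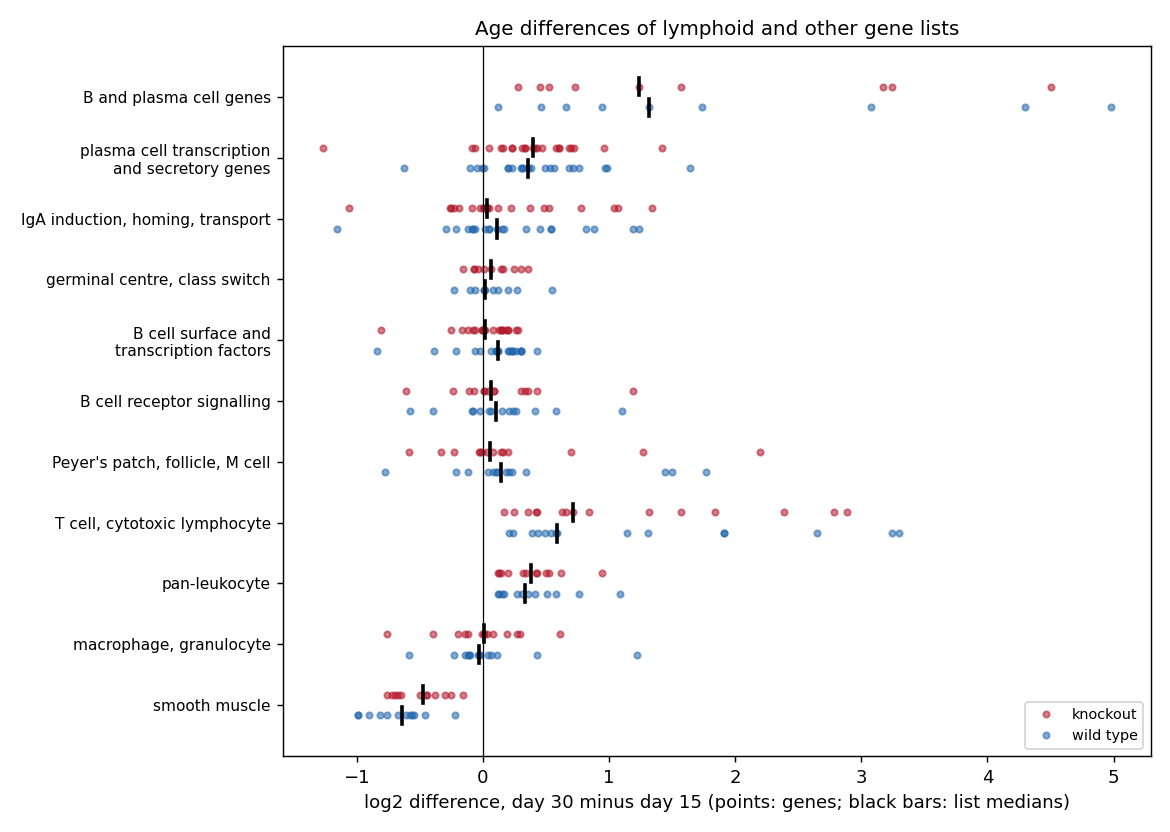
Log2 differences of every measured gene of each list, day 30 minus day 15, knockout above wild type, with the list median as a bar. The 9 B and plasma cell genes have medians of 1.24 in knockout and 1.32 in wild type, T cell genes 0.71 in knockout and 0.59 in wild type, and smooth muscle genes -0.47 in knockout and -0.64 in wild type.

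Other cell types moved with age as well. Of 15 T cell and cytotoxic lymphocyte genes, 14 rose in knockout and 13 in wild type, against 13.8% of all genes in knockout and 12.3% in wild type. Their mean per array was 7.86 to 7.97 in day 30 knockout and 7.81 to 7.91 in day 30 wild type, against 6.73 to 6.83 in day 15 knockout and 6.56 to 6.63 in day 15 wild type. Of 12 general leukocyte genes, 8 rose in knockout and 7 in wild type, while Ptprc (CD45) differed by 0.20 in knockout and 0.15 in wild type and did not pass. All 12 smooth muscle genes fell in both genotypes, as did 17.2% of all genes in knockout and 17% in wild type. Their mean was 10.04 to 10.08 in day 30 knockout and 10.02 to 10.19 in day 30 wild type, against 10.46 to 10.64 in day 15 knockout and 10.74 to 10.84 in day 15 wild type. The part of these shifts in the B and plasma cell differences was not tested beyond a fit that took the smooth muscle mean of each array as a covariate. In that fit Jchain, Igha and Ighm kept their calls in both genotypes. The other calls held only for Mzb1 in knockout. Among the calls lost, the log2 difference of Pou2af1 was still 1.06 in knockout and 1.06 in wild type, and that of Mzb1 in wild type was 2.30. Cd79a stood at 0.54 in knockout and 0.68 in wild type, and Tnfrsf17 at 0.09 in knockout and 0.07 in wild type. The Cd79b difference turned to -0.25 in knockout (limma adjusted p = 0.69) and -0.48 in wild type (adjusted p = 0.61). The smooth muscle mean itself separates the ages without overlap, so this covariate and age overlap.

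Patterns over the 12 arrays were compared after each gene was centred on its own mean. The genes outside antibody loci nearest to Pou2af1 were Lax1, Pigr and Plet1, with root-mean-square log2 differences of 0.11, 0.13 and 0.14. Those nearest to Mzb1 were Nr3c2, Slc26a6 and B4galt1, at 0.11, 0.14 and 0.15. Cd79b lay nearest to Cd5, Tnfrsf13b and Rgs3, at 0.07, 0.08 and 0.08. Ighm lay nearest to Smpdl3b, Cyp2b10 and Oxct1, at 0.19, 0.29 and 0.36. Igha lay nearest to Hsd17b6, Smpdl3b and Gzmb, at 0.40, 0.54 and 0.55, and Jchain to Hsd17b6, Cyp2b10 and Smpdl3b, at 0.81, 0.88 and 0.90. Within the 9 genes the nearest to Jchain was Igha, at 0.66. Cd79a lay nearest to Ly75, Mkrn1 and Krt20, each at 0.10. Tnfrsf17 lay nearest to Plekhh3, Ovol1 and Myo19, at 0.08, 0.10 and 0.10, and Ms4a1 to Lca5l, Tmsb15a and Poc1a, at 0.04, 0.07 and 0.08. A small distance here describes 12 values that share 4 group means, and genes with small differences between groups start out close to each other.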

How the data were processed

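Total RNA of duodenum was measured on 12 single-colour arrays, 3 per group of genotype and age. Per the submitters' processing notes, the authors made the deposited log2 values with RMA in Affymetrix Expression Console version 1.1, which corrects background, normalizes quantiles and summarises probes. The log base was taken as 2 from that method and the range of the values. Of 35557 features, 21789 had 1 gene symbol, 1621 several and 12147 none. Taking the brightest feature per symbol gave 19938 genes. RefSeq (GRCm38.p6) served for chromosomes and promoter windows. No source used here names the array's own build. The 3 pools per group limit the precision.

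A model of 4 group means was fitted to all 12 arrays with limma (version 3.58.1, R version 4.3.3; 8 residual degrees of freedom), with eBayes and Benjamini-Hochberg adjustment over all genes at 0.05. Intervals are 95% and unadjusted. The main fit did not treat replicate numbers as pairs. Deviations of same-numbered arrays correlated from -0.252 to 0.359 over 18 pairs. Between day 15 knockout and day 15 wild type they were 0.359, -0.009 and 0.261 for replicates 1, 2 and 3. Arrays of different number were not compared, so these values cannot tell whether same-numbered arrays share an effect. There were 11 alternative settings and 12 fits that each left out an array. On arrays simulated for the wild type age comparison (19938 genes), 77.6% of 67 genes changed by 0.5 log2 units were called. All of the 67 changed by 1 unit and the 66 changed by 2 were called (100%), as were 14 unchanged genes. The measured arrays had 5849 calls in this comparison, far more than the genes changed here. The adjustment therefore works at another cutoff, and these shares need not hold for the measured arrays.

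The 9 genes, the lists and the naming rule were chosen with earlier results of these data known. Named are all 9, up to 5 genes per list with the smallest p for age in wild type, set B cell genes, and the 3 nearest genes by pattern.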

Additional observations from a re-analysis of the deposited data

How the results depend on the processing

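The age calls of Jchain, Igha and Ighm held in both genotypes in all 23 alternatives, with log2 rises of 4.23 to 7.63 for Jchain, 2.94 to 5.93 for Igha and 2.97 to 3.72 for Ighm. The Igha difference between genotypes at day 15 passed in 14 of 23 alternatives (0.67 to 1.45, limma adjusted p from 0.014 to 0.14). It was lost, giving 0 of 9 genes instead of 1, with only the arrays compared, the replicate block, all features, the smooth muscle covariate or the Xist covariate. The count was 0 to 1 when single arrays were left out.

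Genes called with age in the 9 numbered 4 in each genotype when only the brighter genes were tested, which keeps 4 of them. With the smooth muscle covariate they numbered 4 in knockout and 3 in wild type, with Cd79b at -0.25 in knockout and -0.48 in wild type and Ms4a1 at -0.06 in knockout. Pou2af1 (1.06 in each genotype) and Mzb1 in wild type (2.30) lost the call without a fall to near 0. They numbered 8 to 9 in knockout and 8 in wild type without single arrays, and 0 throughout at day 30 and for the interaction.

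Over all genes, the smooth muscle covariate left 223 calls for age in knockout (6178 without it), 37 in wild type (5849), 78 for genotype at day 15 (764) and 30 for the interaction (91). The Xist covariate gave 3831 for age in wild type, 185 for genotype at day 30 (395) and 33 for the interaction. With only the arrays compared there were 480 at day 15 and 237 at day 30, and the interaction could not be fitted. An intensity trend gave 596 at day 30 and 177 for the interaction. Array weights gave 1218 at day 15 and 155 for the interaction, and testing the brighter genes gave 159 for the interaction. Leaving out single arrays gave 4990 to 6258 for age in knockout, 4561 to 6175 in wild type, 340 to 782 at day 15, 218 to 420 at day 30 and 47 to 123 for the interaction. The replicate block moved none of these counts by over 1.5 times (80 for the interaction) and among the calls of the 9 genes changed only that of Igha. The 3 pools a group limit what can be detected, and Cd79a, Ms4a1 and Tnfrsf17 were among the dimmer genes.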

Other observations

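B cell receptor signalling genes, which many leukocytes also use, were measured for 14 genes, of which 5 rose and 2 fell with age in each genotype. The 2 that fell are near the share of all genes, 17.2% in knockout and 17% in wild type, while 13.8% of all genes rose in knockout and 12.3% in wild type. Plcg2, the phospholipase downstream of the receptor, rose by 1.19 log2 units in knockout and 1.1 in wild type. Il21r, the receptor of a cytokine that drives plasma cell formation, rose by 0.36 in knockout and 0.55 in wild type. Nos2, an enzyme of epithelium and of IgA-promoting myeloid cells, rose by 1.07 in knockout and 0.88 in wild type. The M cell marker Gp2 rose by 1.77 in wild type, and its difference in knockout was 0.70 and did not pass by limma. The interaction of Gp2 did not pass (limma adjusted p = 0.4). Gp2 read 11.10, 12.33 and 11.49 in day 30 wild type, where the acinar gene Cela1 read 11.56, 12.70 and 11.83. With age Cela1 differed by 0.38 in wild type (limma adjusted p = 0.33) and rose by 0.91 in knockout (adjusted p = 0.022). The part of acinar tissue in the Gp2 values was not tested. Ccl20, the chemokine of follicle epithelium, rose by 1.27 in knockout and 1.44 in wild type. Gzmb, a protease of cytotoxic lymphocytes, rose by 2.78 in knockout and 3.30 in wild type and was higher in knockout than in wild type at day 15 (0.73, adjusted p = 0.014).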
